A study of Mus musculus with 15 samples.

Results

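The amino acid transporter genes of mouse pancreatic alpha, beta and delta cells were described from RNA sequencing of sorted cells. A gene was taken as a member where its symbol belonged to the solute carrier families Slc1a, Slc3a, Slc6a, Slc7a, Slc36a, Slc38a or Slc43a, followed by a number and at most 1 letter. The rule used the symbol alone and no measured value, and 61 of the 38283 genes in the table met it. The study sequenced RNA of the islet cells that release glucagon (alpha), insulin (beta) and somatostatin (delta), in order to list the genes that each cell type expresses. Alpha (n = 5) and beta (n = 4) cells came from Glu-Venus mice, in which the proglucagon promoter drives the fluorescent protein Venus, and delta cells (n = 6) came from Sst-CreXROSA26EYFP/EYFP mice, in which Cre under the somatostatin promoter turns on EYFP. The strain was C57BL/6 throughout, and the labels name neither a treatment nor an age. Alpha cells were sorted as Venus-positive, beta cells as Venus-negative cells of high scatter and autofluorescence, and delta cells as EYFP-positive. Each sample was a pool of islets from several mice, so the spread between replicates is the spread between pools. Delta cells thus came from another mouse line than alpha and beta cells, and line and cell type cannot be told apart.

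Amino acids enter cells through carriers that are grouped by what they carry and by the ions they move with. The SLC7 family holds the cationic amino acid carriers for arginine, lysine and ornithine, together with light chains that reach the plasma membrane only when joined to an SLC3 heavy chain. Sodium-coupled SLC38 carriers take up small neutral amino acids (System A) or glutamine, asparagine and histidine (System N), SLC1 carriers take up glutamate or small neutral amino acids, and SLC6 carriers bring in neutral amino acids, neurotransmitters, taurine or creatine. In islets, arginine and other amino acids are classical stimuli of glucagon and insulin release, and amino acid supply is linked to alpha cell number.

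The deposited values are FPKM, read fragments scaled by transcript length and library total, so levels may be compared between genes of a sample. Between samples the comparison is limited, since a few abundant hormone transcripts lower all other values of a library. The table held no counts, and the depth of each library is unknown for 9 of 15 samples. In the other 6 samples the lowest values fell on the steps of single reads, by a criterion chosen after the values were seen, and these gave between 7620000 reads (alpha replicate 2) and 30700000 reads (delta replicate 3). Between 14761 and 17122 genes were above 0 in alpha samples, 15286 to 17752 in beta samples and 16342 to 18559 in delta samples. The cell type labels matched the hormone genes in every sample: Gcg was at least 184430 FPKM in alpha samples and at most 1817 FPKM elsewhere, and Sst was at least 101490 FPKM in delta samples and at most 2427 FPKM elsewhere. Ins2 was at least 91248 FPKM in beta samples, but it reached 9094 FPKM in alpha and 7190 FPKM in delta samples. The summed FPKM of 86 ribosomal protein genes split the libraries, with 6 libraries (alpha replicates 1 to 3, beta replicate 2, delta replicates 1 and 2) between 66916 and 142946 and the other 9 between 8264 and 39517. Where the lower set alone changes a call or moves a called difference by over 1.5-fold, its value is given beside the result, and the part of the split in any result was not tested. The sum of 12 acinar marker genes had a median of 18.6 FPKM in alpha, 2.87 FPKM in beta and 100 FPKM in delta samples and reached 565 FPKM in delta replicate 4, and Ppy, the pancreatic polypeptide gene, was 17728 to 41392 FPKM in alpha, 16.9 to 98.1 FPKM in beta and 10857 to 48600 FPKM in delta samples. In samples of many cells, fewer cells of a type and less RNA per cell cannot be told apart.

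Most of the 61 genes were silent or low in all 3 cell types. A mean above 1 FPKM was reached by 23 genes in alpha, 22 in beta and 24 in delta cells, and 20 genes did so in all 3. A gene was tested where its mean exceeded 1 FPKM in at least 1 cell type, which held for 27 of the 61 members and for 14405 genes in all. Of the 34 members not tested, 9 were listed at 0 in all 15 samples, among them Slc1a6, Slc36a2, Slc36a3, Slc6a3, Slc6a7, Slc6a12, Slc7a9 and Slc7a12, and the other 25 were above 0 in at least 1 sample.

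Differences between cell types were tested with limma on log2(FPKM + 1), with p-values adjusted over all 14405 genes, and a gene was called at an adjusted p under 0.05. The log2 differences below are on this scale, which understates the change of genes with low FPKM. Between any cell types, 11 of the 27 tested members (40.7%) were called by the F-test, where 16.0% of all tested genes were. From alpha to beta cells 3 members (11.1%) were called, against 7.66% of all genes. Of these, 1 was higher in beta cells, where the background was 2.84%, and 2 were lower, where it was 4.82%. From alpha to delta cells 8 members (29.6%) were called, against 6.81% of all genes, with 5 higher in delta cells (background 5.33%) and 3 lower (background 1.48%). From beta to delta cells 9 members (33.3%) were called, against 14.7% of all genes, with 6 higher in delta cells (background 11.7%) and 3 lower (background 2.99%). Of the 27 tested members, 5 passed the filter through 1 cell type only (Slc38a1 and Slc1a1 through delta, Slc6a19 and Slc1a4 through beta and Slc7a7 through alpha cells), so that the filter itself favoured a difference there, and 3 of them were called. Of the other 22 members, 2, 6 and 6 were called in the same order of comparisons. The share called among all genes that passed through 2 or 3 cell types was not computed, so these counts have no matching background. The 3 comparisons share samples, so their counts are not independent of one another. The median log2 difference over the 27 members was -0.20, 0.11 and 0.47 in the same order, and over all tested genes it was -0.13, 0.13 and 0.30. With median-ratio size factors the median over all genes moved by 0.13, -0.12 and -0.28, and the members called became 4 higher and 3 lower in beta against alpha, 4 and 4 in delta against alpha, and 4 and 6 in delta against beta. Quantile normalization gave 2 and 3, 4 and 4, and 5 and 5. The share of all tested genes called was 14.4%, 7.43% and 18.6% with size factors, and 13.7%, 7.55% and 19.1% with quantile normalization. Calls in beta against alpha and in delta against beta thus rose over all genes as well. Over all genes, the share of calls that were higher moved from 37.0% to 52.7% and 47.6% in beta against alpha, from 78.3% to 67.8% and 56.8% in delta against alpha, and from 79.6% to 51.5% and 50.9% in delta against beta. Without alpha replicate 1, 5 members in place of 8 were called in delta against alpha.

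**Figure D1:**
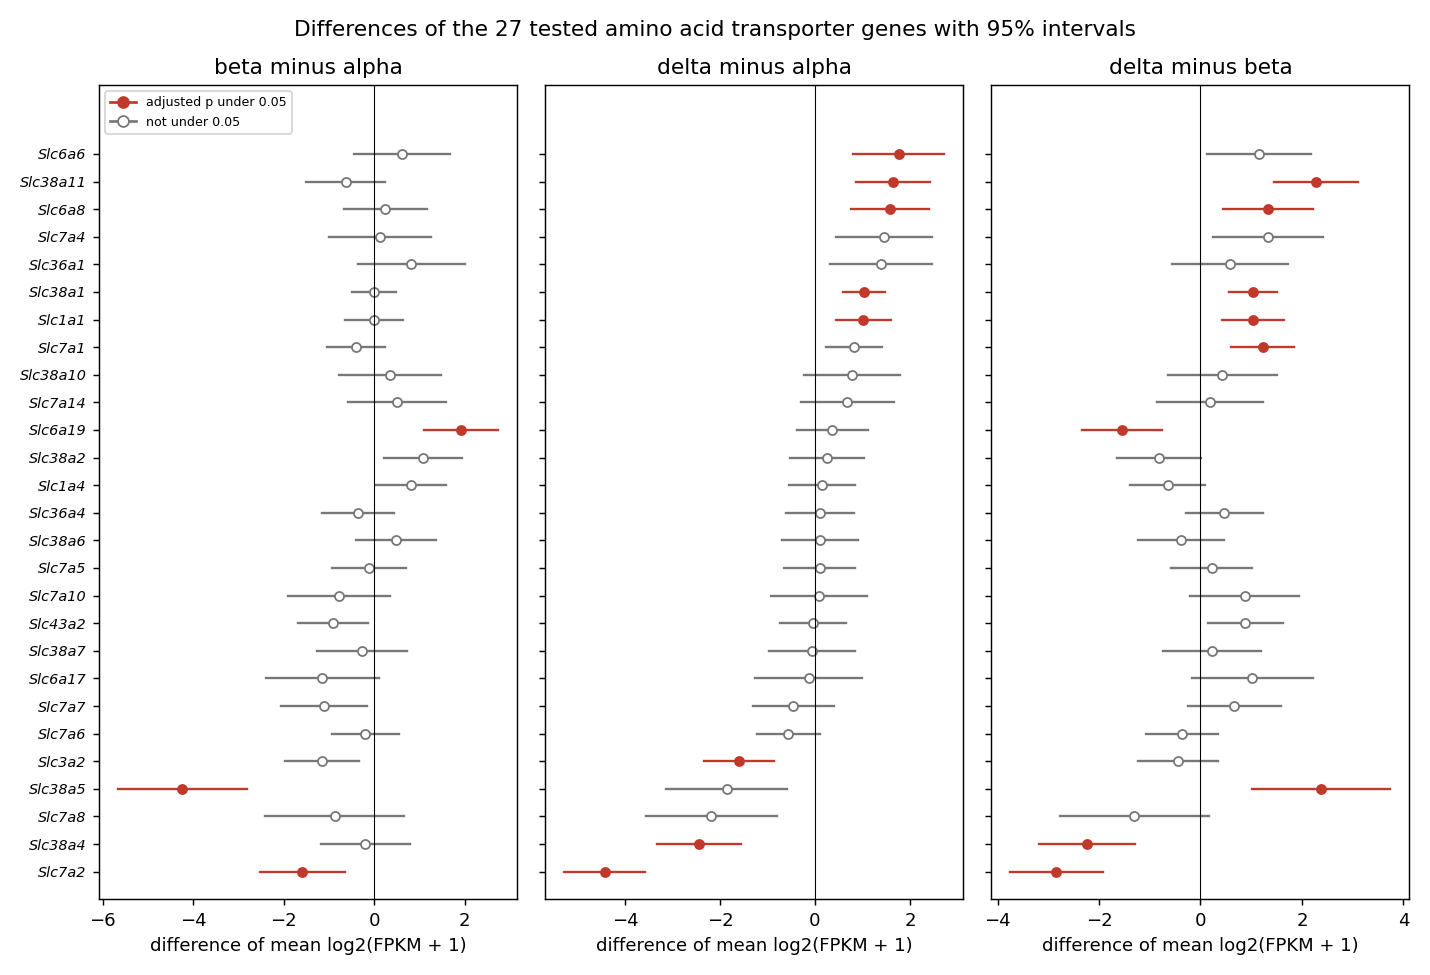
Difference of mean log2(FPKM + 1) for the 27 tested amino acid transporter genes in 3 comparisons (horizontal axes), with 95% intervals as bars and genes in the order of the delta minus alpha difference. Filled red points mark an adjusted p under 0.05, namely 3 genes in beta minus alpha, 8 in delta minus alpha and 9 in delta minus beta, and Slc7a2 lies lowest in delta minus alpha at -4.43.

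Among the carriers of cationic amino acids, Slc7a2 fell from alpha to beta to delta cells while Slc7a1 was higher in delta cells than in beta cells. Slc7a2 (ENSMUSG00000031596, chr8:40862396-40922308, plus strand, GRCm38) encodes the carrier CAT2, which moves arginine, lysine and ornithine across the plasma membrane. It was the member with the highest mean in alpha cells, 131 ± 75.3 FPKM (SD, n = 5), and the second in beta cells, 41.3 ± 19.4 FPKM (n = 4), but only the nineteenth in delta cells, 4.64 ± 1.71 FPKM (n = 6). Alpha replicates 1 to 5 were at 121.6, 110.4, 55.1, 110.3 and 257.4 FPKM, beta replicates 1 to 4 at 24.2, 51.8, 25.95 and 63.3 FPKM, and the delta samples ran from 3.11 FPKM to 7.33 FPKM. No delta sample overlapped the other cell types, and alpha and beta cells overlapped only through alpha replicate 3 and beta replicate 4. The delta minus alpha difference was -4.43 (SE 0.403, adjusted p = 2.49e-06) and the delta minus beta difference -2.84 (SE 0.429, adjusted p = 0.000309). The beta minus alpha difference of -1.59 (SE 0.446, adjusted p = 0.0397) was less secure. It lost its call in 10 of 15 fits that left out 1 library (alpha replicate 1, 2, 4 or 5, beta replicate 1 or 3, delta replicate 1, 3, 4 or 6), with differences from -1.61 to -1.30 and adjusted p from 0.0502 to 0.123, and it had an adjusted p of 0.185 when only alpha and beta cells entered the fit. With alpha and beta replicates 1 to 4 paired by number it was -1.30 and not called (adjusted p = 0.278). In the lower ribosomal set it was -2.27 and called (adjusted p = 0.0348), the alpha mean being 95.7 FPKM in the higher and 184 FPKM in the lower set. Of its exonic length 6.95% is shared with the gene Gm26584 on the opposite strand, and the use of strand in the counting is not given in the sources used here.

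Slc7a1 encodes CAT1, the widely expressed carrier of the same substrates. Its mean was 2.69 ± 1.02 FPKM in alpha, 1.69 ± 0.285 FPKM in beta and 5.44 ± 1.42 FPKM in delta cells. Beta replicates 1 to 4 held 1.72, 1.95, 1.80 and 1.29 FPKM, all below the lowest delta sample at 2.87 FPKM (the highest was 6.83 FPKM), whereas alpha samples, at 3.16, 3.25, 1.01, 2.47 and 3.56 FPKM, overlapped both. For Slc7a1 the delta minus beta difference was 1.23 (SE 0.294, adjusted p = 0.00982). The call was lost with median-ratio size factors (0.88, adjusted p = 0.0617). The delta minus alpha difference of 0.82 missed the threshold (adjusted p = 0.0977) and passed it without delta replicate 2 (0.96, adjusted p = 0.0398). Slc7a3, which encodes another carrier of this kind, was at 0 in all alpha samples and did not exceed 0.0494 FPKM in any sample. Within the summed FPKM of Slc7a1, Slc7a2 and Slc7a3, Slc7a2 made up 97.1% to 98.6% in alpha samples and 93.3% to 98.0% in beta samples, but 36.2% to 55.0% in delta samples. The related genes Slc7a4 and Slc7a14, whose transport functions are less well defined, were not called with all samples. The delta minus beta difference of Slc7a4, 1.33 (adjusted p = 0.0928), was called without alpha replicate 3 (adjusted p = 0.0469), with only beta and delta cells in the fit (adjusted p = 0.0254) and in the lower ribosomal set (1.57, adjusted p = 0.0470). Slc7a4 had a mean of 4.72 ± 3.6 FPKM in alpha, 4.38 ± 2.61 FPKM in beta and 11.6 ± 2.74 FPKM in delta cells, and Slc7a14 14.9 ± 9.87, 18.7 ± 5.37 and 23.2 ± 11.4 FPKM.

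**Figure D2:**
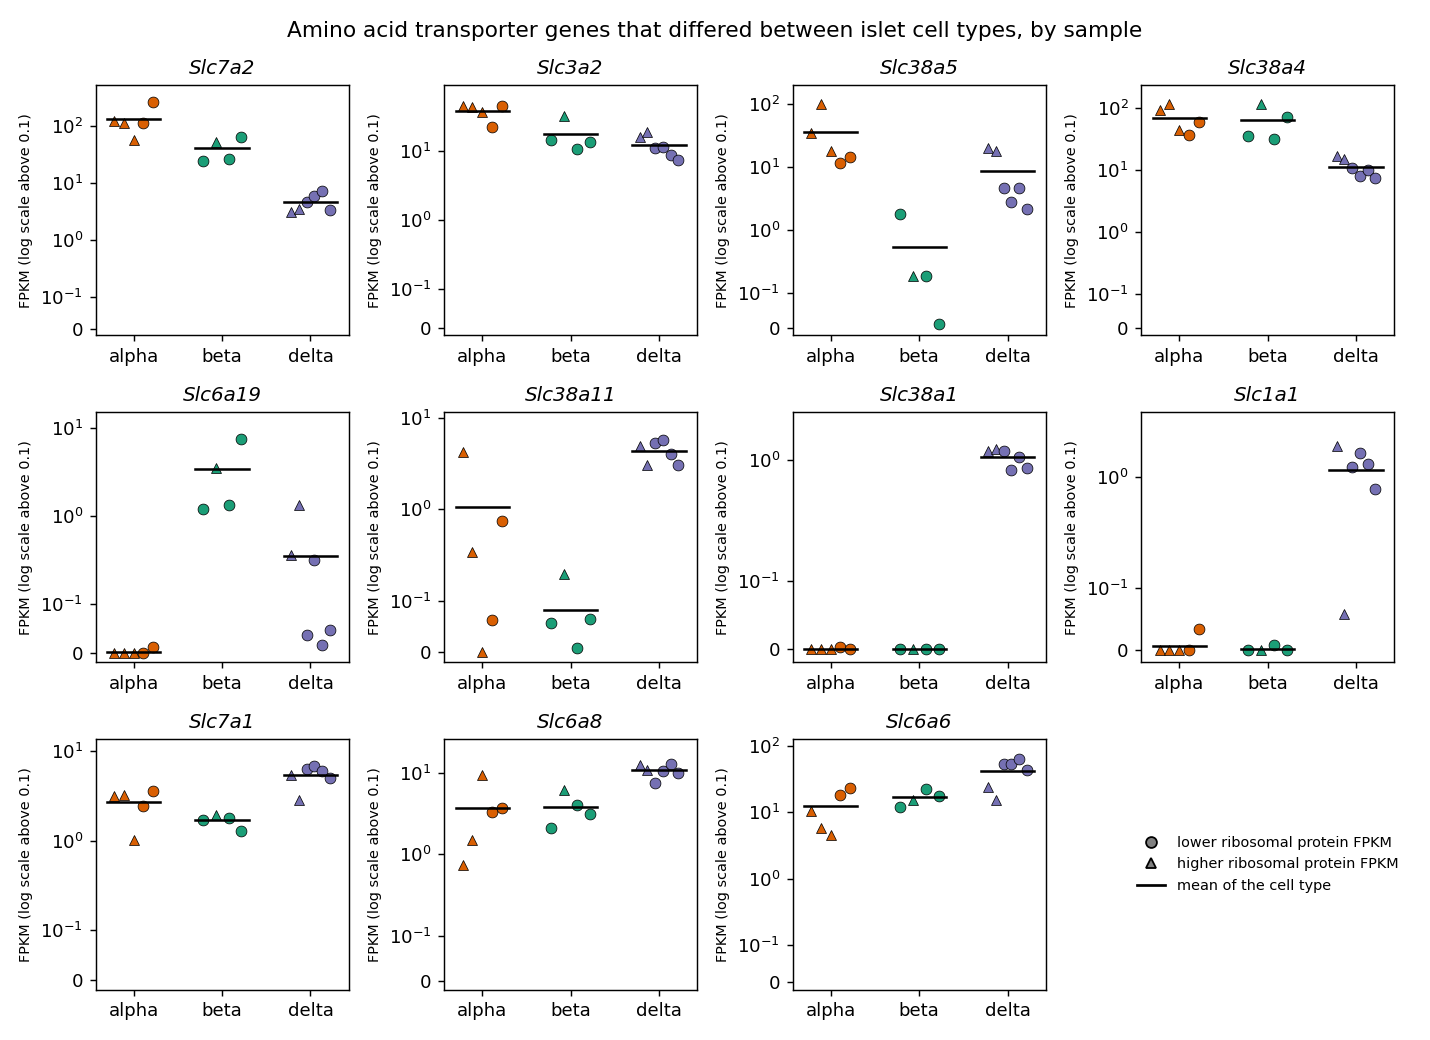
FPKM of the 11 amino acid transporter genes called in at least 1 comparison, on a log scale above 0.1 FPKM and a linear scale below, for each sample of alpha, beta and delta cells, with the mean of the cell type as a line and triangles for libraries with higher ribosomal protein FPKM. Slc7a2 steps down from alpha to delta cells, Slc38a5 is lowest in beta cells, Slc6a19 is highest in beta cells, and Slc38a1 and Slc1a1 are at or near 0 outside delta cells.

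System A carriers take up alanine, glutamine and other small neutral amino acids together with sodium. Slc38a4 (SNAT4; ENSMUSG00000022464, chr15:96994820-97055956, minus strand) was the second most abundant member in alpha cells, 69.8 ± 34.1 FPKM, and the most abundant in beta cells, 63.6 ± 39.7 FPKM, and fell to 11.3 ± 3.68 FPKM in delta cells. Alpha replicates 1 to 5 were at 92.1, 117.2, 43.2, 36.8 and 59.5 FPKM, beta replicates 1 to 4 at 35.4, 117.1, 31.6 and 70.5 FPKM, and delta samples ran from 7.54 to 16.7 FPKM. Every delta sample thus lay below every alpha and beta sample. The difference was -2.44 from alpha cells (SE 0.416, adjusted p = 0.00116) and -2.24 from beta cells (SE 0.444, adjusted p = 0.00275). Between beta and alpha cells the difference was -0.20 (95% interval -1.17 to 0.78, adjusted p = 0.851).

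Slc38a1 (SNAT1) showed the opposite pattern at a low level. It was listed at 0 in all 4 beta samples and in 4 of 5 alpha samples, alpha replicate 4 was at 0.00268 FPKM, and delta replicates 1 to 6 were at 1.18, 1.24, 1.18, 0.83, 1.06 and 0.86 FPKM. It entered the test only through its mean in delta cells, 1.06 ± 0.175 FPKM, the cell type in which it was high. The difference was 1.04 from alpha cells (SE 0.209, adjusted p = 0.0046) and 1.04 from beta cells (SE 0.223, adjusted p = 0.00492). With no filter on low values both were called as well (adjusted p = 4.82e-07 and 5.65e-07). The values and differences are the same without the filter and only the genes fitted beside them change, so this is no separate support. In the lower ribosomal set the delta mean was 0.982 FPKM, under the filter of 1 FPKM, so the gene was not tested there and neither call was made. Slc38a2 (SNAT2), a widely expressed carrier that many cells induce when amino acids are scarce, had a mean of 7.17 ± 3.98 FPKM in alpha, 16.2 ± 7.98 FPKM in beta and 8.23 ± 2.36 FPKM in delta cells and was not called on the FPKM as deposited. With median-ratio size factors it was called as higher in beta cells than in alpha (1.3, adjusted p = 0.00919) and delta cells (delta minus beta -1.20, adjusted p = 0.00854), as it was with quantile normalization (1.13, adjusted p = 0.0164, and -1.04, adjusted p = 0.0149). Within the summed FPKM of the 3 System A genes, the share of Slc38a4 had a median of 89.9% in alpha samples (81.2% to 96.6%), 78.2% in beta samples (76.5% to 82.5%) and 52.0% in delta samples (40.4% to 68.4%). The share of Slc38a2 was 3.43% to 18.8%, 17.5% to 23.5% and 25.9% to 55.4% in the same order.

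**Figure D3:**
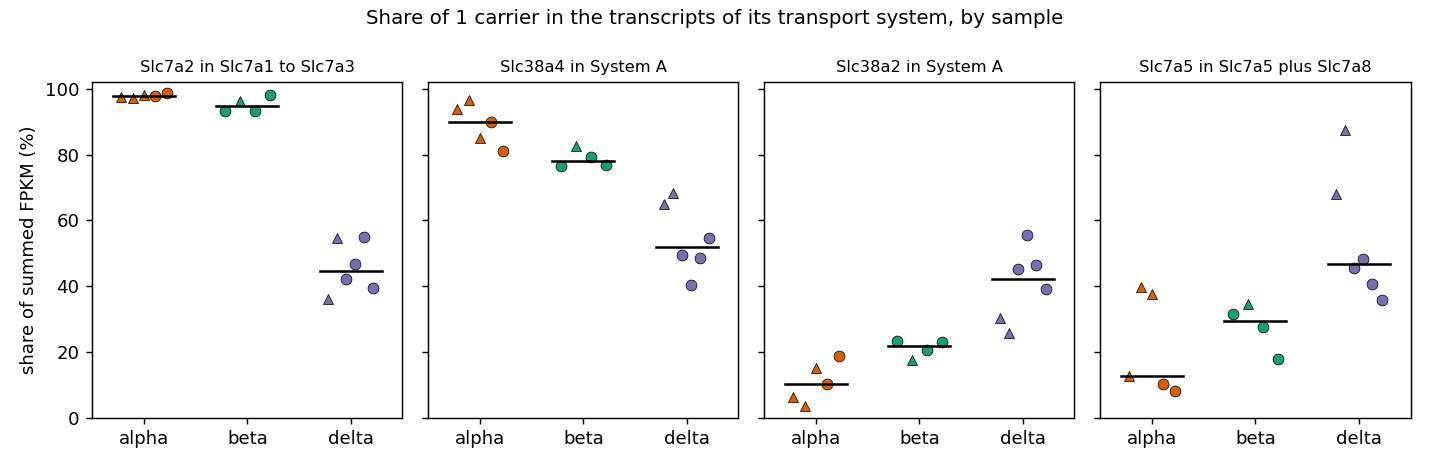
Share (%) of 1 carrier in the summed FPKM of its transport system, for each alpha, beta and delta sample, with the median as a line and triangles for libraries with higher ribosomal protein FPKM. Slc7a2 makes up at least 93.3% of the Slc7a1 to Slc7a3 sum in alpha and beta samples and at most 55.0% in delta samples, and Slc38a4 makes up less of System A in delta samples than in any other sample.

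Slc38a5 (SNAT5; ENSMUSG00000031170, chrX:8271133-8280179, plus strand), a System N carrier of glutamine, asparagine, serine and histidine, showed the largest difference of any tested member between beta and alpha cells on the log2(FPKM + 1) scale. Alpha replicates 1 to 5 were at 35.2, 100.6, 17.99, 11.8 and 14.2 FPKM, and beta replicates 1 to 4 at 1.79, 0.187, 0.186 and 0.0133 FPKM. Delta replicates 1 to 6 were at 20.0, 18.1, 4.68, 2.85, 4.64 and 2.17 FPKM. Beta samples did not overlap either of the other cell types, whereas delta and alpha samples overlapped. The beta minus alpha difference of Slc38a5 was -4.24 (SE 0.670, adjusted p = 0.000736), and its delta minus beta difference was 2.38 (SE 0.644, adjusted p = 0.0203). The latter call was lost without beta replicate 4 (2.22, adjusted p = 0.0679). The delta minus alpha difference of -1.86 missed the threshold (SE 0.604, adjusted p = 0.0863). It passed with median-ratio size factors (-2.0, adjusted p = 0.0413), with quantile normalization (-2.03, adjusted p = 0.0405) and without delta replicate 1 (-2.17, adjusted p = 0.0418) or 2 (-2.14, adjusted p = 0.0442). Levels moved with the ribosomal split: the mean was 51.3 FPKM in the 3 alpha samples of the higher set and 13.0 FPKM in the other 2, and 19.1 FPKM in the 2 delta samples of the higher set and 3.59 FPKM in the other 4. In beta cells the order was the opposite, with 0.187 FPKM in the 1 sample of the higher set and a mean of 0.662 FPKM in the other 3. Within the lower set the beta minus alpha difference was -3.22 (adjusted p = 0.00521), the delta minus beta difference 1.57 (adjusted p = 0.0244) and the delta minus alpha difference -1.65 (adjusted p = 0.093). Slc38a3, the other System N carrier, was at 0 in alpha cells and at most 0.0251 FPKM elsewhere, so Slc38a5 made up at least 98.6% of the summed System N FPKM in each sample.

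Among the other SLC38 genes, Slc38a11 was higher in delta cells. Slc38a11 (ENSMUSG00000061171, chr2:65316430-65364034, minus strand) is a member of the family whose substrates are poorly known. Delta samples ran from 3.01 to 5.73 FPKM with a mean of 4.35 ± 1.15 FPKM, beta replicates 1 to 4 were at 0.058, 0.196, 0.009 and 0.065 FPKM, and alpha replicates 1 to 5 were at 4.22, 0.344, 0, 0.064 and 0.752 FPKM. Beta samples lay apart from delta samples, and of the alpha samples only replicate 1 reached the delta range. The difference was 2.28 from beta cells (SE 0.394, adjusted p = 0.000942) and 1.65 from alpha cells (SE 0.369, adjusted p = 0.0101). Without alpha replicate 1 the latter was 2.06. Slc38a6, Slc38a7 and Slc38a10 were expressed in all 3 cell types and not called, with means of 8.50 to 14.5, 1.64 to 1.91 and 9.03 to 13.6 FPKM. With median-ratio size factors Slc38a6 was called in beta minus alpha (0.70, adjusted p = 0.0480) and in delta minus beta (-0.74, adjusted p = 0.0260). Slc38a9, a lysosomal arginine sensor that acts on mTORC1, was not tested, with means of 0.777 ± 0.442 FPKM in alpha, 0.664 ± 0.543 FPKM in beta and 0.557 ± 0.132 FPKM in delta cells. Slc38a8 did not exceed a mean of 0.248 FPKM.

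The heavy chain Slc3a2 (4F2hc or CD98; ENSMUSG00000010095, chr19:8706882-8723369, minus strand) carries several SLC7 light chains to the membrane, and it was lower in delta cells than in alpha cells. Alpha replicates 1 to 5 were at 43.8, 43.4, 35.8, 22.0045 and 44.5 FPKM, beta replicates 1 to 4 at 14.3, 32.0, 10.5 and 13.5 FPKM, and delta samples from 7.34 to 18.4 FPKM. All alpha samples lay above all delta samples, and beta samples overlapped both. The delta minus alpha difference was -1.59 (SE 0.349, adjusted p = 0.00848). The beta minus alpha difference of -1.15 missed the threshold (SE 0.387, adjusted p = 0.0837) but passed it without beta replicate 2 (-1.47, adjusted p = 0.0166), with median-ratio size factors (-0.91, adjusted p = 0.0249) and with quantile normalization (-0.99, adjusted p = 0.0227). The delta minus beta difference of -0.45 (adjusted p = 0.475) was called with median-ratio size factors (-0.84, adjusted p = 0.0240) and under no other alternative run. Slc3a1, the heavy chain that pairs with Slc7a9 in kidney and gut, had a mean of at most 0.225 FPKM in any cell type.

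None of the 5 tested light chains was called. Slc7a8 (LAT2) and Slc7a5 (LAT1) carry large neutral amino acids such as leucine and phenylalanine. Slc7a8 was the third most abundant member in both alpha cells, 56.9 ± 52.1 FPKM, and beta cells, 20.6 ± 6.73 FPKM, and had a mean of 8.87 ± 4.69 FPKM in delta cells. Alpha replicates 1 to 5 were at 57.0, 17.0, 7.53, 63.7 and 139.3 FPKM, beta replicates at 16.0, 27.6, 25.0 and 13.7 FPKM, and delta replicates at 5.60, 1.19, 13.1, 8.95, 12.6 and 11.8 FPKM. Alpha samples were thus widely spread, and their lower end overlapped delta samples. The delta minus alpha difference of -2.18 missed the threshold (adjusted p = 0.0574). It was called in the 9 libraries of the lower ribosomal set (-2.93, adjusted p = 0.00404), with the ribosomal set as a covariate (-2.54, adjusted p = 0.00783), and without alpha replicate 2 (-2.45) or 3 (-2.72). The beta minus alpha difference of -0.88 (adjusted p = 0.496) was also called in the lower set (-2.35, adjusted p = 0.0129). Slc7a5 lay at 8.73 ± 3.09 FPKM in alpha, 8.61 ± 4.84 FPKM in beta and 9.13 ± 1.94 FPKM in delta cells, and its delta minus alpha difference was not called. Slc7a5 made up 8.09% to 39.9% of the summed FPKM of the pair in alpha samples, 17.7% to 34.6% in beta samples and 35.9% to 87.6% in delta samples.

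Slc7a10, a light chain for small neutral amino acids, had means of 22.9 ± 15.4, 10.9 ± 5.42 and 19.8 ± 5.47 FPKM in alpha, beta and delta cells, with 17.9% of its exonic length shared with Lrp3. Slc7a6 and Slc7a7, the light chains of System y+L, were low, with means of 2.09 ± 0.894, 1.73 ± 1.05 and 1.10 ± 0.674 FPKM for Slc7a6 and 2.29 ± 2.82, 0.201 ± 0.194 and 0.934 ± 0.477 FPKM for Slc7a7. Slc7a11, the cystine and glutamate exchanger, was not tested and had means of 0.307 ± 0.148 FPKM in alpha, 0.532 ± 0.206 FPKM in beta and 0.229 ± 0.0548 FPKM in delta cells. Slc7a15 was listed at 0 in all alpha and delta samples and was at 1.18, 0.157, 0.253 and 0.179 FPKM in beta replicates 1 to 4. These low values were not tested.

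Slc43a2 (LAT4), a sodium-independent carrier of branched-chain amino acids, was the third most abundant member in delta cells, 25.8 ± 6.71 FPKM, against 26.95 ± 8.77 FPKM in alpha and 13.8 ± 5.23 FPKM in beta cells. The delta minus beta difference of 0.88 missed the threshold (adjusted p = 0.107) and passed it without beta replicate 2 (1.09, adjusted p = 0.0427) and in the lower ribosomal set (1.25, adjusted p = 0.0223). Slc43a1 (LAT3) was listed at 0 in all beta samples and reached 2.12 FPKM in 1 delta sample, and was not tested. Of the proton-coupled SLC36 carriers, Slc36a1 had a mean of 4.78 ± 7.24 FPKM in alpha, 5.57 ± 1.77 FPKM in beta and 8.79 ± 2.39 FPKM in delta cells. Its delta minus alpha difference of 1.39 was not called (adjusted p = 0.132). It was called without alpha replicate 2 (1.99, adjusted p = 0.0016), as was the beta minus alpha difference (1.4, adjusted p = 0.0391), and in the lower ribosomal set (1.64, adjusted p = 0.0300). Slc36a4 lay between a mean of 4.43 and 6.43 FPKM in all 3 cell types.

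Slc6a19 was the one member called as higher in beta cells than in alpha cells. Slc6a19 (ENSMUSG00000021565, chr13:73679745-73704865, minus strand) encodes B0AT1, the main sodium-coupled carrier of neutral amino acids in gut and kidney. Beta replicates 1 to 4 were at 1.22, 3.51, 1.35 and 7.66 FPKM. Alpha samples were at 0 but for replicate 5 at 0.011 FPKM, and delta replicates 1 to 6 were at 0.36, 1.35, 0.036, 0.321, 0.0151 and 0.047 FPKM. Beta samples did not overlap alpha samples, and delta replicate 2 was the only delta sample within the beta range. The beta minus alpha difference was 1.91 (SE 0.389, adjusted p = 0.00613) and the delta minus beta difference -1.55 (SE 0.374, adjusted p = 0.0105). Slc6a19 entered the test only through beta cells, where it was high, and with no filter both differences were called as well (adjusted p = 0.00663 and 0.0108). Both differences are the same without the filter, so this is no separate support. In the lower ribosomal set the beta minus alpha difference was 1.82 and not called (adjusted p = 0.0752). It was also not called with alpha and beta replicates 1 to 4 paired by number (1.92, adjusted p = 0.118). Slc6a17, a vesicular carrier of neutral amino acids known from neurons, was not called but was the second most abundant member in delta cells, 31.0 ± 14.3 FPKM, against 40.1 ± 32.9 FPKM in alpha and 14.0 ± 6.42 FPKM in beta cells. With the ribosomal set as a covariate its beta minus alpha difference was called (-1.68, adjusted p = 0.00836) and so was its delta minus beta difference (1.15, adjusted p = 0.0250), and within the lower ribosomal set both were also called (-2.25, adjusted p = 0.0136, and 1.31, adjusted p = 0.0297). Slc6a20a, a carrier of proline and related imino acids, was not tested, being at 0 in alpha samples, up to 0.0426 FPKM in beta samples and 0.125 to 0.532 FPKM in delta samples.

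Both carriers of small organic solutes in the SLC6 family, of taurine and of creatine, were called as higher in delta cells than in alpha cells. Slc6a6, the taurine transporter, was the most abundant member in delta cells, 42.2 ± 18.7 FPKM, against 12.4 ± 7.95 FPKM in alpha and 16.9 ± 4.28 FPKM in beta cells. Delta replicates 1 to 6 were at 24.4, 15.2, 53.7, 53.7, 62.9 and 43.3 FPKM, alpha replicates 1 to 5 at 10.4, 5.76, 4.62, 18.3 and 22.9 FPKM, and beta replicates 1 to 4 at 11.9, 15.6, 22.1 and 17.9 FPKM. Of the delta samples only replicate 2 lay within the range of the other cell types. Slc6a6 moved with the ribosomal split, with delta means of 19.8 FPKM in the higher and 53.4 FPKM in the lower set. In alpha cells these means were 6.92 and 20.6 FPKM, and in beta cells 15.6 and 17.3 FPKM. Among delta samples of the higher set Slc43a2, with a mean of 19.9 FPKM, lay slightly above Slc6a6. The delta minus alpha difference of Slc6a6 was 1.76 (SE 0.453, adjusted p = 0.0244) and the delta minus beta difference was 1.16 (SE 0.483, adjusted p = 0.126). The first call was lost without alpha replicate 1, 2 or 3 or delta replicate 3, 4 or 5 (1.51 to 1.76, adjusted p 0.0553 to 0.0762), with median-ratio size factors (1.59, adjusted p = 0.0864), with quantile normalization (1.73, adjusted p = 0.0637) and in the lower ribosomal set (1.33, adjusted p = 0.0746). The delta minus beta difference was called with the ribosomal set as a covariate (1.25, adjusted p = 0.0135) and in the lower set (1.60, adjusted p = 0.00728).

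Slc6a8, the creatine transporter, had a mean of 10.8 ± 1.95 FPKM in delta cells, 3.71 ± 3.39 FPKM in alpha and 3.83 ± 1.70 FPKM in beta cells. Delta samples ran from 7.63 to 13.0 FPKM, above all beta samples (2.10, 6.09, 4.05 and 3.10 FPKM) and above the alpha samples (0.75, 1.5, 9.38, 3.28 and 3.66 FPKM) other than replicate 3. The difference was 1.58 from alpha cells (SE 0.391, adjusted p = 0.0194) and 1.34 from beta cells (SE 0.417, adjusted p = 0.0415). The first call was lost without alpha replicate 1 (1.29) or 2 (1.42), with adjusted p of 0.0603 to 0.0618, and in the lower ribosomal set (1.32, adjusted p = 0.0561). The second was lost without beta replicate 1, 3 or 4 or any delta replicate (1.14 to 1.42, adjusted p 0.0514 to 0.134), with a pseudocount of 0.1 (1.55, adjusted p = 0.0643), with no filter (adjusted p = 0.0611), with median-ratio size factors (0.97, adjusted p = 0.138) and with quantile normalization (1.00, adjusted p = 0.101). None of the 9 neurotransmitter carriers of the SLC6 family was tested, their summed FPKM being at most 1.78 in any sample. Among them Slc6a11, the GABA transporter GAT3, was at 0 in alpha samples, at most 0.0428 FPKM in beta samples and 0.0747 to 0.456 FPKM in delta samples.

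Of the 5 glutamate carriers of the SLC1 family, only Slc1a1 was tested, and it entered the test only through delta cells, where it was high. Slc1a1 encodes EAAT3, a sodium-coupled carrier of glutamate, aspartate and cysteine. Delta replicates 1 to 6 were at 1.89, 0.058, 1.21, 1.63, 1.28 and 0.776 FPKM, whereas alpha samples were at 0 but for replicate 5 at 0.0334 FPKM and beta samples at 0 but for replicate 3 at 0.00781 FPKM. All delta samples thus lay above all others, replicate 2 by little. The difference was 1.02 from alpha cells (SE 0.271, adjusted p = 0.0293) and 1.03 from beta cells (SE 0.288, adjusted p = 0.0245). With no filter both were called as well (adjusted p = 0.00622 and 0.00646), but the differences are the same there, so this is no separate support. The first call was lost without alpha replicate 1, 2, 3 or 4 or delta replicate 3, 4 or 5 (0.95 to 1.02, adjusted p 0.0561 to 0.0719), with only alpha and delta cells in the fit (adjusted p = 0.0739) and in the lower ribosomal set (1.12, adjusted p = 0.0706). The second was lost without beta replicate 1 or 4 or delta replicate 4 (0.95 to 1.03, adjusted p 0.0534 to 0.0599) and with only beta and delta cells in the fit (adjusted p = 0.0571). Without delta replicate 1 the gene fell under the filter of 1 FPKM and was not tested, so neither call was made. Of its exonic length 31.9% is shared with 4430402I18Rik on the opposite strand, a gene at 0.591 to 9.08 FPKM in alpha, 0.74 to 14.6 FPKM in beta and 2.31 to 15.5 FPKM in delta samples. Without strand the reads of the 2 genes cannot be told apart where they overlap. The neutral carriers Slc1a4 (ASCT1) and Slc1a5 (ASCT2) were low. Slc1a4 had means of 0.644 ± 0.621, 1.91 ± 1.17 and 0.811 ± 0.591 FPKM in alpha, beta and delta cells and was not called, although beta minus alpha was called with median-ratio size factors (0.95, adjusted p = 0.0487) and delta minus beta with quantile normalization (-1.10, adjusted p = 0.0151). Slc1a5 reached 3.53 FPKM in 1 delta sample and was not tested.

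The summed FPKM of the 61 genes was 516 ± 193 in alpha, 298 ± 104 in beta and 286 ± 43.5 in delta cells, and the genes that filled it differed. Slc7a2 made up 20.5% to 32.2% of the sum in alpha samples, 11.6% to 18.9% in beta samples and 1.16% to 2.36% in delta samples. Slc38a4 made up 7.44% to 21.7%, 14.3% to 27.3% and 2.46% to 6.74% in the same order. Slc6a6 ran the other way, from 1.07% to 3.88% in alpha samples and 3.63% to 10.01% in beta samples to 6.93% to 20.3% in delta samples. These shares describe the libraries and were not tested, since the levels behind them were. The carriers of taurine and creatine filled a median of 3.32% of the sum in alpha, 6.48% in beta and 18.9% in delta samples.

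**Figure D4:**
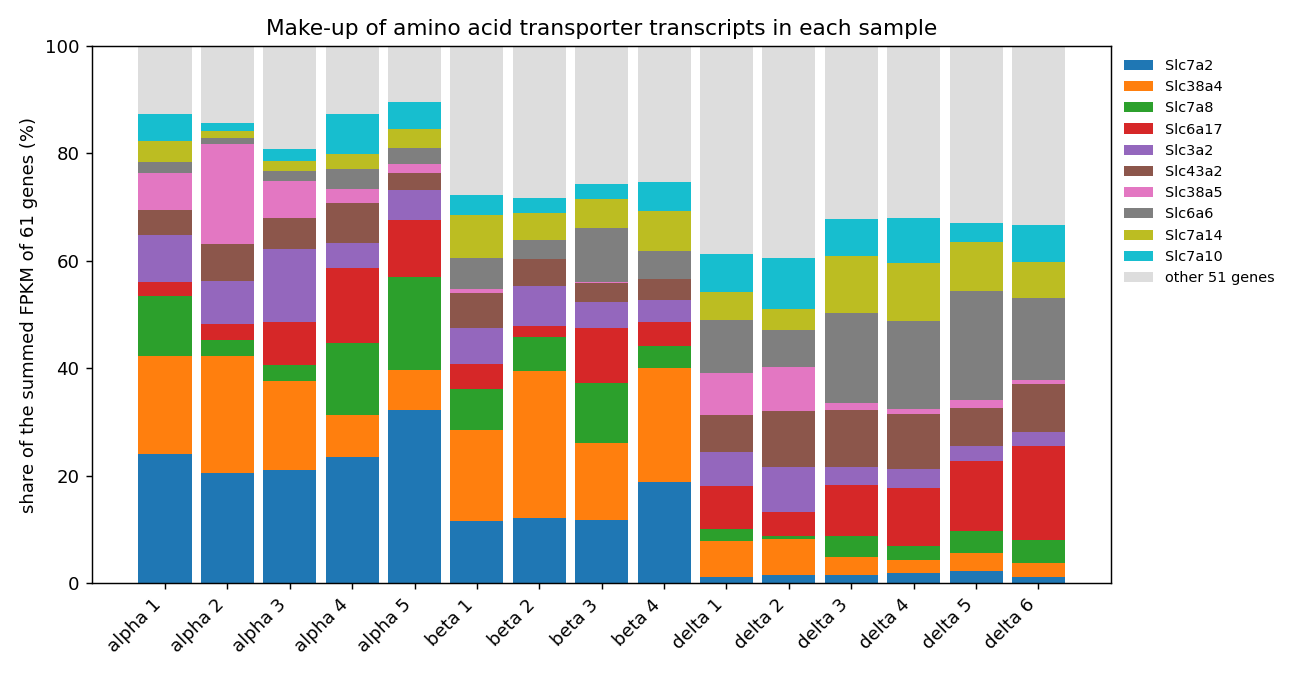
Share of the summed FPKM of the 61 amino acid transporter genes (%) in each of the 15 samples, for the 10 genes named in the key and the other 51 genes together in grey. Slc7a2 fills 20.5% to 32.2% of the alpha bars and 1.16% to 2.36% of the delta bars, and Slc6a6 fills 6.93% to 20.3% of the delta bars.

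Genes that use or sense amino acids were counted in the same fit. Of 28 tested genes of amino acid metabolism, 2 rose and 5 fell from alpha to beta cells, 2 rose and 3 fell from alpha to delta cells, and 5 rose and 3 fell from beta to delta cells. The shares called were 25.0%, 17.9% and 28.6%, beside 7.66%, 6.81% and 14.7% of all tested genes. Asns, asparagine synthetase, was higher in beta cells, 112 ± 67.6 FPKM, than in alpha, 32.3 ± 12.2 FPKM (1.65, adjusted p = 0.0332), or delta cells, 26.2 ± 10.3 FPKM (delta minus beta -1.95, adjusted p = 0.00587). Oat, Gad1, Aldh4a1, Bckdha, Ass1, Pycr1 and Phgdh were also called in at least 1 comparison.

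Of 9 tested genes of the response to amino acid shortage, the transcription regulator genes Ddit3, Nupr1 and Atf5 rose from alpha to beta cells and fell from beta to delta cells, and none was called between delta and alpha cells. The 3 called genes were 33.3% of the 9 tested, beside 7.66% and 14.7% of all tested genes in these comparisons. Nupr1 had means of 0.289 ± 0.245, 37.0 ± 16.7 and 0.681 ± 0.733 FPKM in alpha, beta and delta cells. Of 28 tested genes by which mTORC1 senses amino acids, Rragd and Fnip1 rose and Rragb and Gatsl2 fell from alpha to beta cells, Gatsl2 rose and Fnip2 fell from beta to delta cells, and none was called between delta and alpha cells. The shares called were 14.3% from alpha to beta cells and 7.14% from beta to delta cells, beside 7.66% and 14.7% of all tested genes, and 0 of 28 were called from alpha to delta cells, beside 6.81%. Rragb, 1 of the Rag GTPase genes, was at 45.8 ± 38.1 FPKM in alpha and 5.79 ± 4.46 FPKM in beta cells, and Rragd was at 6.84 ± 2.77 and 40.8 ± 33.1 FPKM. Of 6 tested carriers of amino acids or peptides outside the 7 families, 1 (16.7%) was called in each comparison: Slc16a10, a carrier of aromatic amino acids, fell from alpha to beta cells (33.5 ± 14.9 against 108 ± 40.2 FPKM, adjusted p = 0.0191), and the lysosomal carrier Mfsd12 was higher in delta than in both other cell types (2.76 ± 1.95 FPKM against 0.528 ± 0.517 FPKM in alpha and 0.188 ± 0.0907 FPKM in beta cells).

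RefSeq promoter windows of 250 bases before to 50 after a gene's start (GRCm38.p6) were found for 43 of the 61 members. Since Asns, Ddit3, Nupr1 and Atf5 were higher in beta cells, the windows were searched on both strands for the amino acid response element, spelled TGATGNAA, a motif chosen after the values were seen. It was in 4 of 64 member windows (6.25%), those of Slc7a11, Slc1a4 and Slc7a7, and in 1304 of 32851 windows of all genes (3.97%). The members with a match did not share a direction: Slc7a11 and Slc1a4 had their highest mean in beta cells and Slc7a7 its lowest, while Slc1a4 and Slc7a7 were not called and Slc7a11 was not tested. A window of each is shown with the matches in capitals, namely Slc7a11 (chr3:50443564-50443863, minus strand), Slc1a4 (chr11:20332664-20332963, minus strand) and Slc7a7 (chr14:54417895-54418194, minus strand). The other matching window of Slc7a7 overlaps the one shown and holds 1 of its 2 matches. Matches start 66 and 47 bases before the start of Slc7a11, 4 bases before that of Slc1a4, and 141 and 1 bases before that of Slc7a7. The windows of Slc38a5 (chrX:8271131-8271430, plus strand) and Slc38a11 (chr2:65363977-65364276, minus strand) are shown as those of members called as differing between beta and delta cells, and these letters do not occur in them.
Slc7a11: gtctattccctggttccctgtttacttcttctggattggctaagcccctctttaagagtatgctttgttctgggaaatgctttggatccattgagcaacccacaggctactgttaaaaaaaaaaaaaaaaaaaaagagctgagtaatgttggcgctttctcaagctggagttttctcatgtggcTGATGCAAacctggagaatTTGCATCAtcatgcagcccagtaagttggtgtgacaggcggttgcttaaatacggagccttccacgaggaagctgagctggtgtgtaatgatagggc
Slc1a4: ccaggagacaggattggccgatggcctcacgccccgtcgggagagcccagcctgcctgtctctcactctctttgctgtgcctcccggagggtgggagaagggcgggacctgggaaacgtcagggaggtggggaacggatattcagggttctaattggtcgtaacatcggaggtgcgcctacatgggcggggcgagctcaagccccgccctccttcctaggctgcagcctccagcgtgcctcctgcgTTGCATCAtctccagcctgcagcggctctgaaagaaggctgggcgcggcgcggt
Slc7a7: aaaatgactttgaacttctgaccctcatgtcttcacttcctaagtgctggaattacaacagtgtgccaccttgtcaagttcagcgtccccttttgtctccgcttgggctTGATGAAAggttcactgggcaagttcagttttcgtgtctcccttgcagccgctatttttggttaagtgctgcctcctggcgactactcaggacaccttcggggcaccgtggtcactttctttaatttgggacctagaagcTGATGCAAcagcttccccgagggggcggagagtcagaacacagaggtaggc
Slc38a5: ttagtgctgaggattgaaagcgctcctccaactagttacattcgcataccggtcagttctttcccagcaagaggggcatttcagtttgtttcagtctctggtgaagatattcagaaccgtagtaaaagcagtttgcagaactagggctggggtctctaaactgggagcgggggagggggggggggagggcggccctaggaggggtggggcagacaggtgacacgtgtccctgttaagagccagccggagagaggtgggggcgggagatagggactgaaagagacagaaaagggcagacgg
Slc38a11: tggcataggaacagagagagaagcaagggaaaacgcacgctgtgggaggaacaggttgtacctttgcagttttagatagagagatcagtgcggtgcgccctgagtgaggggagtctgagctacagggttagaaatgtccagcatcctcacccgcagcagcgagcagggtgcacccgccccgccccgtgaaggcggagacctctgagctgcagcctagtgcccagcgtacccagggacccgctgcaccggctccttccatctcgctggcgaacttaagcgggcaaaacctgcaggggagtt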

How the data were processed

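RNA of 15 samples of sorted islet cells was amplified and sequenced with single-end reads. The authors aligned reads to GRCm38 with TopHat and deposited FPKM values per gene made with Cufflinks. The submitters' processing notes name TopHat2 2.0.8, Cufflinks 2.2.1 and edgeR, while the methods of the paper name a later TopHat release. FPKM values are scaled to each library's total, so that a few abundant hormone transcripts lower all other values of that library. How overlapping genes and strand were treated is not given in the sources used here.

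Cell types came from the labels. The study's own edgeR test needs counts and could not be run on FPKM. Differences were tested with limma 3.58.1 in R 4.3.3 (lmFit, contrasts.fit, eBayes with trend) on log2(FPKM + 1) over all 15 samples, with Benjamini-Hochberg adjustment over 14405 genes whose mean exceeded 1 FPKM in at least 1 cell type. A limma test simulated for delta minus alpha on 14405 genes recovered 166 of 200 genes changed by 3 on the log2 scale, with 11 false calls. Among the members called in delta minus alpha, only Slc7a2 (-4.43) differed by more than 3. Recovery of smaller changes was not tested, nor was recovery in the other comparisons. Alternatives were a pseudocount of 0.1, no filter or a filter of 5 FPKM, median-ratio and quantile scaling, a replicate block, the ribosomal set as a covariate or the lower set alone (limit 50000 FPKM), 2 cell types per fit, the log2 ratio of mean FPKM, an adjusted p under 0.01 and each library left out. Genes are named with values where they were called in at least 1 comparison, were among the 3 highest means of a cell type, or were listed by the study as differing, and the remaining members are given by role. The members and lists were chosen with earlier results of these data known. All 61 members were found in the GENCODE M21 annotation (GRCm38), which gave coordinates and overlaps. Depth was read from the FPKM steps of 5024 genes with 1 transcript. Tables were made with Python 3.11.15 and pandas 2.3.3. Some genes are counted but not reported here by name.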

Additional observations from a re-analysis of the deposited data

Results flagged for a closer look

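The highest or lowest sample stood apart from its cell type, by Dixon's test at the 95% level, in 6 of 44 combinations of gene and cell type. Chance gives about 1 in 20 where values vary continuously, but in 4 of the 6 all other samples were at 0, so that any value above 0 stands apart, and the count is not set against chance. Slc38a5 was at 1.79 FPKM in beta replicate 1, with the other beta samples between 0.0133 and 0.187 FPKM. Slc6a19 was at 1.35 FPKM in delta replicate 2, with the other delta samples between 0.0151 and 0.36 FPKM. In the remaining 4, a single sample was above 0 where all others of its cell type were at 0: Slc6a19 in alpha replicate 5 (0.011 FPKM), Slc1a1 in alpha replicate 5 (0.0334 FPKM) and in beta replicate 3 (0.00781 FPKM), and Slc38a1 in alpha replicate 4 (0.00268 FPKM).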

How the results depend on the processing

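The number of members called was 3 in beta against alpha, and it became 7 with median-ratio size factors, 5 with quantile normalization and 1 when alpha and beta replicates 1 to 4 were paired by number. Over all tested genes the share called in this comparison also rose, from 7.66% to 14.4% with size factors and 13.7% with quantile normalization. In delta against alpha 8 became 5 with a filter of 5 FPKM (19 members tested, without Slc1a1, Slc38a1, Slc38a11 and Slc6a19) and 4 at an adjusted p under 0.01. In delta against beta 9 became 5 with either, and the 11 of the F-test became 7 and 6. Leaving out 1 library gave 2 to 4, 5 to 10, 6 to 10 and 9 to 12 members in the same order of comparisons. In the lower ribosomal set alone 4, 6, 12 and 13 members were called. No called difference of a tested member changed direction under any alternative run. Over the differences of the 27 tested members, fits that left out 1 library lost 38 calls and gained 10. Both calls of Slc1a1 are also absent without delta replicate 1, and both of Slc38a1 in the lower ribosomal set, because the gene then fell under the filter and was not tested. The depth limits genes of low FPKM: whether Slc38a1 or Slc1a1 is absent in alpha and beta cells cannot be read from values at 0.

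Replicate numbers are shared between cell types, and alpha and beta samples of the same sorts may share pools of mice. Same-numbered samples deviated together with correlations of -0.152 to 0.281, which cannot decide whether they share a pool. The sources do not state pairs, so the main tests did not use the numbers as pairs. A replicate block over all 15 samples gave 3, 8, 8 and 9 members, and over all genes 1227, 831 and 2001 calls. The fit of alpha and beta replicates 1 to 4 with pairs gave 201 calls over all genes, but it also left out alpha replicate 5 and all delta samples, so this count does not show the effect of pairing alone. The block ended both calls of Slc6a8 (adjusted p = 0.0654 and 0.1) and brought in that of Slc38a5 in delta against alpha (adjusted p = 0.0491), and the paired fit ended those of Slc7a2 (-1.30, adjusted p = 0.278) and Slc6a19 (1.92, adjusted p = 0.118) in beta against alpha.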
